A study of Mus musculus with 17 samples.

Results

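Interferon-stimulated genes are the antiviral and immune genes that a cell switches on when type I interferon reaches it. A list of 40 of them, out of the 21889 genes considered, was followed in RNA polymerase II chromatin immunoprecipitation sequencing (ChIP-seq) of mouse bone marrow-derived macrophages. The list was given by name, was chosen with earlier results of these data known, and used no threshold on a measured value. It was sorted into 6 groups by role: the ISG15 system (3 genes), the IFIT family (4), the OAS family (5), sensors and kinases (7), other antiviral effectors (14) and interferon-inducible GTPases (7). The study compared wild-type (WT) macrophages with macrophages lacking N4bp1 (KO), each left untreated or treated with R837 for 2, 4 or 6 h. R837, also called imiquimod, is a small-molecule agonist of the endosomal receptor TLR7. Each of the 8 groups held 2 libraries, which made 16 libraries, all from bone marrow-derived macrophages and all precipitated with the same polymerase antibody. The sex, age and strain of the mice, how N4bp1 was removed and the dose of R837 are not given in the sources used here. Whether the 2 libraries of a group came from separate mice or cultures is not stated either, so p-values below are set against library-to-library spread that could be technical alone.

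Type I interferon binds its receptor IFNAR and activates receptor-bound kinases, and the signal ends at the interferon-stimulated response element (ISRE) in the promoters of its target genes. Interferon gamma acts mainly through a different element, GAS. In macrophages TLR7 signals through MyD88 to NF-kB and to interferon regulatory factors, so that R837 can reach these genes directly and through secreted interferon. N4BP1 is known as a restrainer of NF-kB signalling downstream of Toll-like receptors that is cleaved by caspase-8.

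Of the 31 members with a promoter sequence, 17 held an ISRE-type match and 14 held none. The 250 bases before the start of 5 members are printed here. They were picked because each holds such a match, lies outside the annotated gene span, and belongs to a gene that the results below turn on. The sequences come from RefSeq on GRCm38.p6 and run 5′ to 3′ on the strand of the gene, and capitals mark the match, which was GAAA, any 2 bases and GAAA again, on either strand. They lie at chr4:156200819-156201068 (minus strand) for Isg15, chr19:34640639-34640888 (plus) for Ifit1, chr12:26456453-26456702 (minus) for Rsad2, chr11:48871421-48871670 (minus) for Irgm1 and chr1:174031756-174032005 (minus) for Ifi205.
Isg15: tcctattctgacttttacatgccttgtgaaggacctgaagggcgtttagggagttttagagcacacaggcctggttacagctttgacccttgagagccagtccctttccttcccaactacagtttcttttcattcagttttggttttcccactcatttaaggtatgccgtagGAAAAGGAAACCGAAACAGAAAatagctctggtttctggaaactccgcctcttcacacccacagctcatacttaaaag
Ifit1: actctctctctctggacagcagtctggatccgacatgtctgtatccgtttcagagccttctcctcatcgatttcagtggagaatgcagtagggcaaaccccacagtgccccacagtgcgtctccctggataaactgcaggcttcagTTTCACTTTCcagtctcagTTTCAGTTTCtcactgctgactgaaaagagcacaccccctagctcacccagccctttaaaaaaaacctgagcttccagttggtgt
Rsad2: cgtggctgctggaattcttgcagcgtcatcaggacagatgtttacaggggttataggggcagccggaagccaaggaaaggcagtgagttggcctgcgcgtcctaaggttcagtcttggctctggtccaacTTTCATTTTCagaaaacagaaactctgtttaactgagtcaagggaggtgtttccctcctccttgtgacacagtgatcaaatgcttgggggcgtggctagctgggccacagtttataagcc
Irgm1: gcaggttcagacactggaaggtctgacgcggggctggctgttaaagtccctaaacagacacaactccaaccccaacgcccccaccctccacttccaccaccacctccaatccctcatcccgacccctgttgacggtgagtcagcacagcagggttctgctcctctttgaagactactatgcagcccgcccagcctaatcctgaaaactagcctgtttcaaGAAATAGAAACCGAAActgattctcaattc
Ifi205: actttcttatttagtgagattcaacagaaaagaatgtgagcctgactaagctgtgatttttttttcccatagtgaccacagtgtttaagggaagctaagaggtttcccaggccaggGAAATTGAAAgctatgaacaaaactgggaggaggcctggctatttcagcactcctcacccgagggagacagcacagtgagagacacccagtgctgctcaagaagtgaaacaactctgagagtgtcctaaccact
In Isg15, 3 matches overlapped, beginning 78, 72 and 66 bases before the start, and printed as a single run of capitals. Ifit1 held 2 separate matches, at 104 and 85 bases before the start, and Rsad2 and Ifi205 held 1 each, at 120 and 134. Promoter sequences were matched for 31 of the 40 members, and for 14 of them a window reached into the annotated span, since RefSeq gives a start inside it. The ISRE-type match was in 54.8% of these 31 members, against 608 of 17492 genes (3.48%) and 630 of 21263 promoters of the same length (2.96%). A GAS-type match (TTCNNNGAA on either strand) was found in 7 of the 31 members (22.6%) and in 7.65% of genes. An NF-kB-type match (GGG, any 2 bases and TTTCC, on either strand) was found in 1 member, Gbp5 (3.23%), and in 1.68% of genes. A match is a stretch of letters and not a measured binding site.

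The deposited files list polymerase summits, the points of highest enrichment, each with a score on a −log10 scale. A gene's value here was the rank of the best-scoring summit within its annotated span extended by 1 kb on each side, so rank 1 is the strongest summit of a library. Lists held between 8394 and 29760 summits. Each was shortened to its 8394 best before ranks were taken, so that a long list could not hold more members merely by its length. Unless the lists as deposited are named, a gene without a summit had none in the shortened list. The rank score was log2 of 8395 divided by the rank, with 0 where the region held no summit and 13.04 as the highest possible value. On this scale a gene that moves up by 1 has a rank number smaller by a factor of 2. It is a place within a library and not an amount of polymerase. In bulk chromatin, fewer responding cells and less polymerase per cell cannot be told apart.

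Some facts of the libraries bear on the results. The untreated lists held summits at 6430 to 6689 genes, and the treated lists at 2695 to 5887. The last summit kept scored 19.39 to 22.22 in the untreated lists and 10.22 to 13.86 at 2 h. Over all treated lists it scored 7.09 to 27.88, so a gene without a summit fell short of a different score in each list. The KO lists at 4 h held 25612 and 24671 summits as deposited, more than the 16391 and 19710 of the WT lists. Codes in the peak names fell into 3 series: untreated and 2 h libraries together, 4 h libraries, and 6 h libraries. A change between these times therefore cannot be told apart from a change of series, whereas KO and WT at any single time carried codes of 1 series. KO 6 h replicate 2 had a highest score of 563.5, while that of no other library passed 320.4. In 22 of 240 ordered library pairs, over 80% of the summits of the first list had a score value that also occurred in the second. Identical summit positions made up 0.05 to 0.482%. Macrophage markers were present: 9 of 10 had a summit in each untreated list and 7 to 9 in the treated lists. For plasmacytoid dendritic cells, a major source of interferon, 1 of 8 markers had a summit in the untreated lists and 1 to 2 in the treated lists, with summed rank scores of 1.45 to 1.75 and 0.03 to 2.93. Siglech, Ly6d, Klk1, Cox6a2, Pacsin1 and Spib had none in any list. Of 6 conventional dendritic cell markers 1 had a summit in the untreated lists and 1 to 2 in the treated lists. B cell and fibroblast markers had no summit in any list, and neutrophil and T or NK cell markers at most 1 of 7. N4bp1 itself had a summit in 12 lists, 6 of them KO, at ranks 541 to 3475. Which part of the gene was removed is not given, so polymerase over it does not check the genotype labels.

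After R837 the best polymerase summit ranked higher at most of the interferon-stimulated genes. In the lists as deposited, 20 to 27 members already had a summit in the untreated libraries, against 18 to 26 at 2 h. The numbers were 38 to 39 at 4 h and 31 to 39 at 6 h, where the libraries carry other code series. In 12 treated against 4 untreated libraries, 29 of the 39 members that had enough summits to be tested rose and none fell. Among all 8477 genes tested, 5.79% rose and 29.4% fell. At an unadjusted p under 0.05, 33 members were higher, and 3881 of the 8477 genes differed in either direction. The median change over the tested members was 1.47 on the rank score scale, against −0.33 over all genes. It was 0.80 with each gene counted once in the ranking, against 0.04 over all genes. With summits counted on a log2 scale in place of ranks it was 0.85, against −0.27. Every one of the 39 fitted changes lay above 0. The fit was limma across all genes with Benjamini-Hochberg adjustment, and a gene needed a summit in at least 2 lists to enter it. The only untested member was Ifi44, which had no summit in any of the 16 lists. With each gene counted once, 19 members rose and the split over all genes moved from 491 higher and 2488 lower to 419 higher and 627 lower. Of the 29 members that rose, 23 passed the threshold whichever library was left out.

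**Figure D1:**
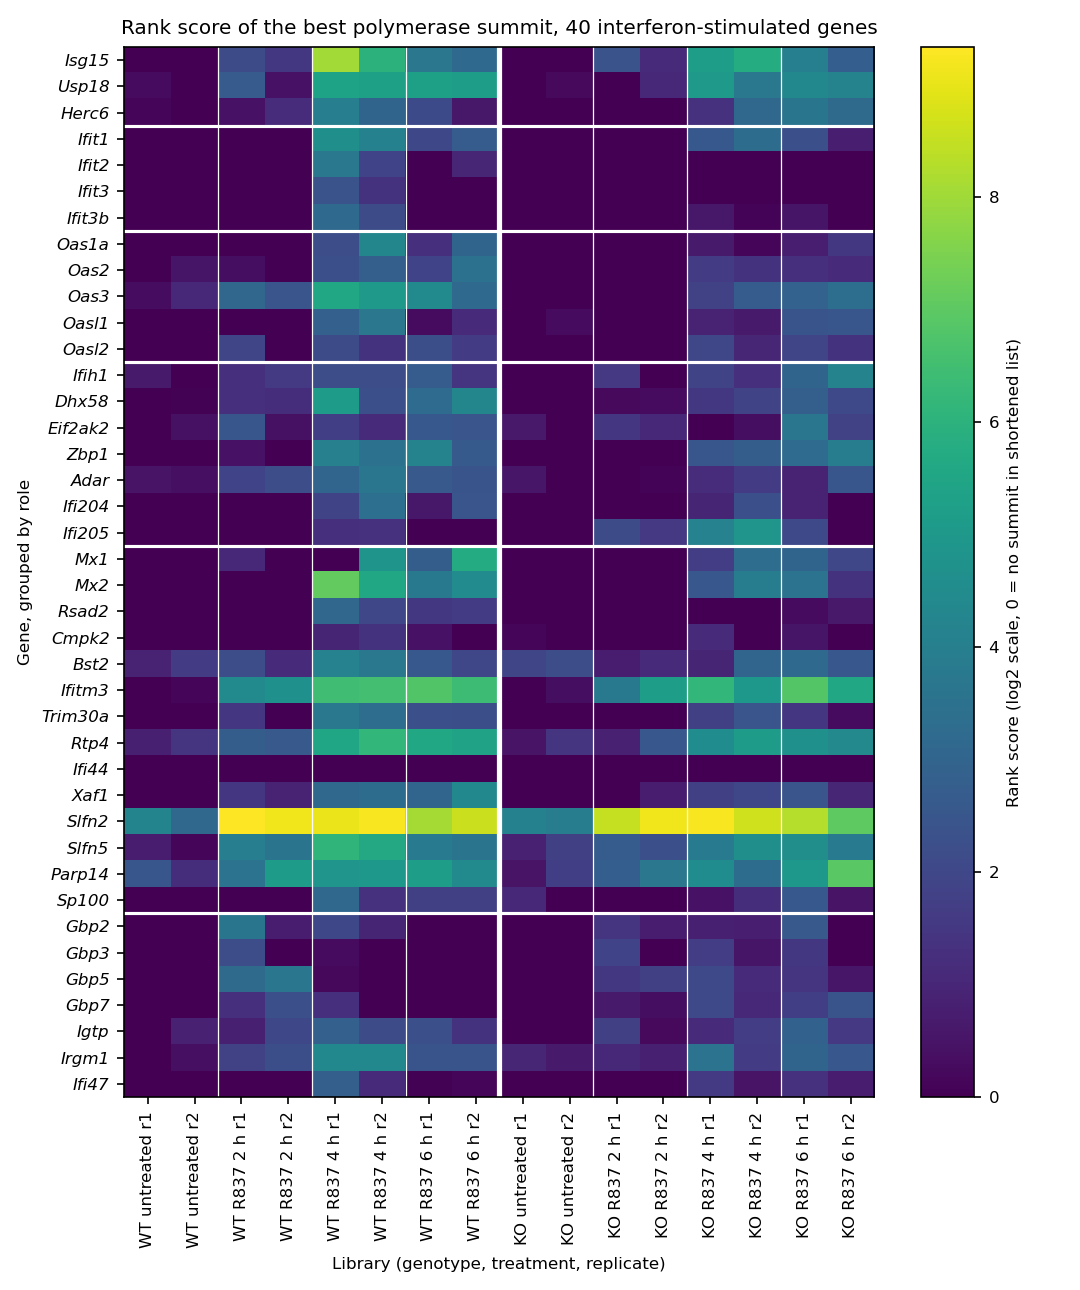
Rank score (log2 of 8395 divided by the rank of the best summit, 0 where none) of the 40 members in rows, grouped by role, in the 16 libraries in columns. The 4 untreated columns are mostly at 0 except for a few members such as Slfn2, and the 2 WT columns at 4 h hold summits at 38 and 36 members.

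The ISG15 system conjugates the ubiquitin-like protein ISG15 to other proteins and removes it again. Isg15 (chr4:156199424-156200818), which encodes that protein, had no summit in the 4 untreated lists as shortened. In the untreated lists as deposited it ranked 18923 and 15112 in WT and 18208 in KO replicate 2. At 2 h its best summit ranked 1863 and 2945 in WT and 1622 and 3879 in KO. At 4 h it ranked 32 and 133 in WT and 231 and 154 in KO, and at 6 h 648 and 926 in WT and 514 and 1232 in KO. All 12 treated libraries thus lay above all 4 untreated ones, and the 4 h libraries were the highest. The mean rank score rose by 3.82 ± 0.42 (SE; limma adjusted p = 2.52e-05). Usp18 (chr6:121245906-121270917), the protease that removes ISG15 and damps the interferon receptor, ranked 6893 in WT untreated replicate 1 and 7123 in KO untreated replicate 2, with no summit in the other 2 untreated lists. At 2 h it ranked 1323 and 6088 in WT and, in KO, had no summit and 4006, and at 4 h it ranked 197 and 210 in WT and 260 and 639 in KO. At 6 h the ranks were 211 and 228 in WT and 406 and 460 in KO. Apart from the KO library at 2 h without a summit, every treated library lay above the untreated ones, and the change was 3.43 ± 0.41 (limma adjusted p = 4.66e-05). Herc6, an ISG15 ligase in the mouse, rose by 1.86 ± 0.39.

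The IFIT proteins bind viral RNA that lacks the host's cap methylation. No member of this family had a summit in any of the 8 untreated or 2 h lists as shortened. As deposited, Ifit1 ranked 22844 in WT untreated replicate 1. Ifit2 ranked 18333 and 15375 in untreated WT and 20431 in KO untreated replicate 2. Ifit1 (chr19:34640889-34650009) ranked 336 and 492 in WT and 1415 and 858 in KO at 4 h. At 6 h it ranked 2062 and 1261 in WT and 1716 and 4852 in KO. Its change over all treated libraries was 1.87 ± 0.33 (limma adjusted p = 0.000741), and it was the family's only member called in that comparison. Ifit2, Ifit3 and Ifit3b had changes of 0.55 ± 0.28, 0.31 ± 0.15 and 0.55 ± 0.21, which did not pass. They had summits in 3, 2 and 5 lists. The best summit of Ifit1 also lay in the extended region of Ifit1bl1 in 8 of 8 lists, and that of Ifit3b in the region of Ifit1bl1 in 5 of 5. Ifit3 and Ifit3b are close copies, and how the aligner placed 75-base single-end reads that match both is not given, so their separate values are uncertain. The same holds for the neighbouring copies among the Oas and Gbp genes.

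The enzymatically active oligoadenylate synthetases of the OAS family make the second messenger that activates RNase L, which degrades RNA in infected cells. All 5 family members rose, the synthetase-like gene Oasl1 among them. Oas3 (chr5:120753098-120777684) ranked 6783 and 4044 in untreated WT and had no summit in untreated KO. It ranked 996 and 1541 in WT at 2 h and had no summit in KO at 2 h. At 4 h it ranked 180 and 254 in WT and 2404 and 1282 in KO, and at 6 h 378 and 915 in WT and 1113 and 812 in KO. In WT, the 6 treated libraries lay above both untreated ones, whereas in KO that was so of the 4 libraries at 4 and 6 h. The change was 2.54 ± 0.34 (limma adjusted p = 0.000106). Oas1a, Oas2, Oasl1 and Oasl2 rose by 1.14 to 1.31. Oas1a lost its call when any of 10 libraries was left out.

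Among the sensors and kinases, 6 of 7 rose. Zbp1 (chr2:173206612-173218959), a sensor of Z-form nucleic acid that can start cell death, had no summit in the untreated lists as shortened. As deposited, it ranked 19704 in WT untreated replicate 2. At 2 h only WT replicate 1 had any, the best ranked 6137. At 4 h it ranked 505 and 744 in WT and 1483 and 1253 in KO, and at 6 h 464 and 1343 in WT and 869 and 539 in KO. The 8 later libraries lay above the 8 earlier ones, and the change was 2.28 ± 0.32 (limma adjusted p = 0.000174). Dhx58 (chr11:100694884-100704271), which encodes the RNA sensor LGP2, had a summit in 1 untreated list, at rank 8054. It ranked 3464 and 3602 in WT and 7224 and 7007 in KO at 2 h, 239 and 1714 in WT and 2955 and 2205 in KO at 4 h, and 868 and 433 in WT and 1172 and 2012 in KO at 6 h. The order of treated above untreated held for all 12 libraries, with a change of 2.18 ± 0.43. In 7 of its 13 lists the best summit also lay in the extended region of Kat2a. Ifih1, which encodes the RNA sensor MDA5, rose by 1.78 ± 0.38, Adar, which edits double-stranded RNA, by 1.47 ± 0.33, and Eif2ak2, which encodes the kinase PKR, by 1.33 ± 0.42. The best summit of Eif2ak2 lay in the region of Gm26637 as well in 13 of 13 lists, and that of Adar in the region of Chrnb2 in 6 of 14. Ifi204, a DNA sensor of the PYHIN family, had a change of 1.04 ± 0.40 that did not pass.

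The other antiviral effectors held the largest changes. Ifitm3 (chr7:141009590-141010744) encodes a membrane protein that blocks virus entry. It had a summit in 2 untreated lists, at ranks 7510 in WT replicate 2 and 6664 in KO replicate 2. At 2 h it ranked 390 and 329 in WT and 621 and 228 in KO, at 4 h 95 and 89 in WT and 117 and 269 in KO, and at 6 h 75 and 99 in WT and 74 and 181 in KO. All treated libraries lay far above the untreated ones, in both genotypes and from 2 h on. The change was 5.53 ± 0.38 (limma adjusted p = 4.55e-07). Ifitm3 was not called with the gene region not extended or with summits counted. In WT at 2 h neither of its 2 summits lay within 1 kb of the start. The farther one lay 1286 bp downstream, beyond the annotated end. Slfn2 (chr11:83065112-83070678), a schlafen gene needed for quiescence and survival of immune cells, was already occupied at rest, at ranks 450 and 981 in WT and 490 and 550 in KO. In the 12 treated lists it ranked between 13 and 65. Its change was 4.84 ± 0.36 (limma adjusted p = 9.47e-07). The number of its summits, on a log2 scale, fell by 1.03 (limma adjusted p = 0.00435). Its direction thus depended on whether place or number was read. Slfn5 (chr11:82951349-82964850), another schlafen gene, ranked 4971 and 7481 in WT and 4593 and 2480 in KO before treatment. It ranked 532 and 694 in WT and 1277 and 1727 in KO at 2 h, 121 and 169 in WT and 584 and 337 in KO at 4 h, and 595 and 698 in WT and 347 and 573 in KO at 6 h. Treated and untreated libraries did not overlap, and the change was 3.17 ± 0.33 (limma adjusted p = 1.54e-05).

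Rtp4 and Parp14 were also occupied at rest. Rtp4 (chr16:23520219-23614222), a receptor-transporting protein with antiviral activity, ranked 4778 and 3179 in WT and 5876 and 3179 in KO without treatment. At 2 h it ranked 1255 and 1366 in WT and 4706 and 1439 in KO, at 4 h 190 and 117 in WT and 360 and 242 in KO, and at 6 h 175 and 205 in WT and 324 and 403 in KO. KO 2 h replicate 1 lay among the untreated values and the other treated libraries above them, and the change was 3.14 ± 0.37 (limma adjusted p = 3.89e-05). Parp14 (chr16:35831892-35871518), an ADP-ribosyltransferase, ranked 1472 and 3599 in WT and 5877 and 2557 in KO without treatment and between 68 and 1221 in the treated lists. These ranges did not overlap, and the change was 3.04 ± 0.48 (limma adjusted p = 0.000373).

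Mx1 and Mx2 encode dynamin-like GTPases that block virus replication, and the reference annotates both as transcribed pseudogenes, as C57BL/6J mice carry disrupted copies. Mx2 (chr16:97536081-97560901) had no summit in the 8 untreated and 2 h lists as shortened, and as deposited ranked 20339 in WT untreated replicate 1. It ranked 61 and 175 in WT and 1436 and 548 in KO at 4 h, and 614 and 372 in WT and 721 and 3268 in KO at 6 h. WT lay above KO without overlap at both times, and the change over all treated libraries was 2.70 ± 0.43 (limma adjusted p = 0.000396). Mx1 (chr16:97447035-97462906) had a summit in 8 treated lists and in no untreated one. It ranked 4037 in WT 2 h replicate 1, 294 in WT 4 h replicate 2, 2625 and 831 in KO at 4 h, 1256 and 158 in WT at 6 h, and 1038 and 2150 in KO at 6 h. WT 4 h replicate 1 had none in the region, although a summit at rank 140 lay 1478 bp outside the annotated span on the start side. The change in Mx1 was 2.03 ± 0.74 (limma adjusted p = 0.0475) and was lost when any of 13 libraries was left out. Xaf1 and Trim30a rose by 2.01 ± 0.35 and 1.59 ± 0.34, whereas Bst2, Sp100 and Cmpk2 did not pass.

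The GTPases attack the vacuoles of intracellular pathogens and answer strongly to interferon gamma. Irgm1, Igtp, Gbp5 and Gbp7 rose, and Gbp2, Gbp3 and Ifi47 did not pass. Irgm1 (chr11:48865245-48871420), which regulates the other immunity-related GTPases, ranked 6486 in WT untreated replicate 2 with no summit in WT replicate 1, and 4178 and 5194 in untreated KO. It ranked 2367 and 1774 in WT and 4080 and 4746 in KO at 2 h, 411 and 413 in WT and 707 and 2708 in KO at 4 h, and 1579 and 1576 in WT and 1037 and 1433 in KO at 6 h. KO at 2 h overlapped untreated KO, while at the later times both genotypes lay above every untreated library. The change was 2.00 ± 0.35 (limma adjusted p = 0.000713).

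The 17 members with an ISRE-type match in the 250 bases before a start had a median change of 1.29. The 13 tested members whose promoter sequence held no match had 1.33. The 9 members without a promoter sequence, Usp18, Mx2, Rtp4 and Parp14 among them, are in neither group. These medians are close, and no test was made of them.

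The number of members called differed between the times. Untreated and 2 h libraries share a code series, but those at 4 and 6 h carry other codes. Time and series therefore cannot be told apart where 4 or 6 h libraries are compared with untreated ones. That includes the comparison of all treated libraries with untreated ones. In WT, 6 members rose at 2 h, 28 at 4 h and 20 at 6 h, against 3.53%, 3.54% and 3.13% of all genes that rose at those times. In KO, 3 rose at 2 h, 14 at 4 h and 18 at 6 h, against 2.64%, 3.79% and 5.13% of all genes. No member fell in any of these 6 comparisons, whereas 778 to 1187 of the 8477 genes did. The 2 genotypes' responses are set against different untreated libraries, and counts of calls do not show that the responses differ. The median change over the 39 tested members was 0.97, 2.81 and 2.05 in WT and 0.00, 1.61 and 1.74 in KO. Without WT 2 h replicate 1 the WT median at 2 h was 0.00. The 6 called in WT at 2 h were Slfn2, Ifitm3, Slfn5, Oas3, Gbp5 and Gbp7, and the 3 called in KO were Slfn2, Ifitm3 and Gbp5. Without WT 6 h replicate 2, the count in WT at 6 h was 10. With only the 2 compared groups in the fit, it was 12 in WT at 4 h and 0 in WT at 6 h, and it was 6 in KO at 4 h and 4 in KO at 6 h.

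**Figure D2:**
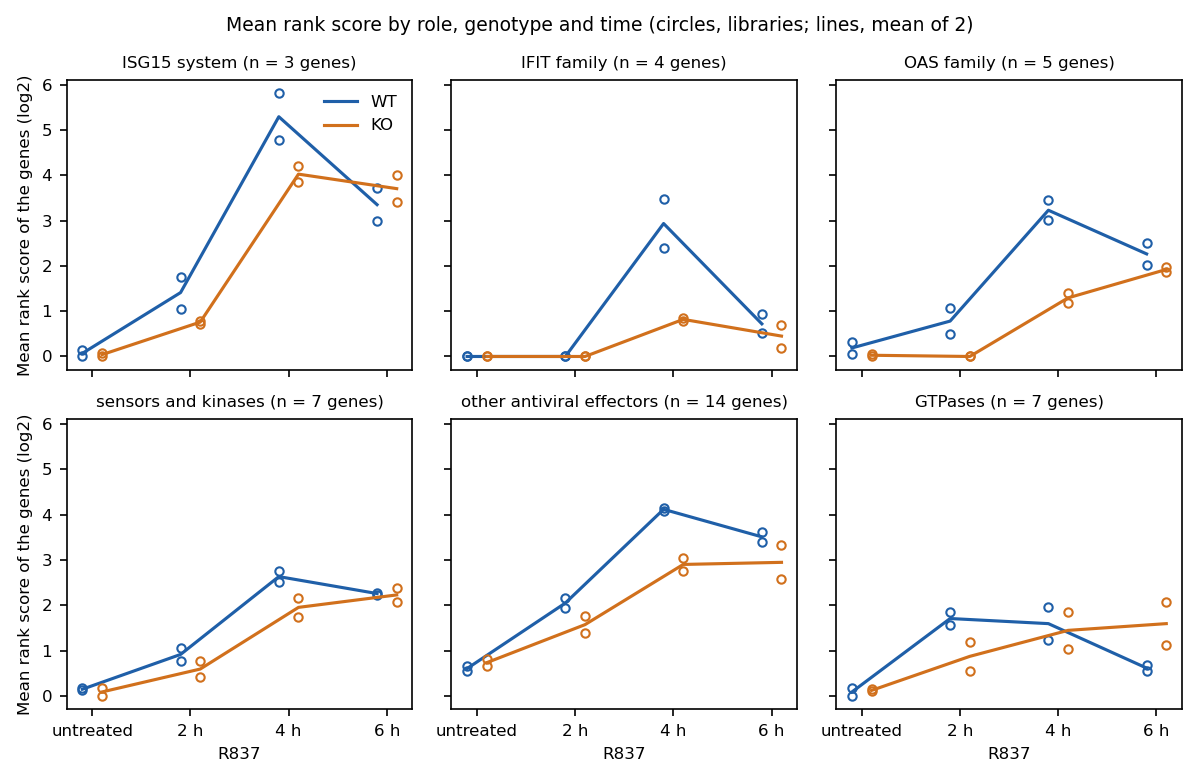
Mean rank score of each role group (vertical axis) in untreated cells and by hours after R837 (horizontal axis), with 1 point per library and lines through the group means, WT and KO in separate colours. The IFIT family is at 0 before 4 h, where the 2 WT libraries reach 3.48 and 2.39 and the KO libraries 0.79 and 0.85.

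From 2 to 4 h, with both genotypes averaged, 21 of 39 members rose, against 3.17% of all genes, and 1 fell, against 1.80%. Mx2 rose by 4.79 ± 0.53, Isg15 by 4.45 ± 0.51, Usp18 by 3.82 ± 0.50 and Ifit1 by 3.65 ± 0.40. All 3 genes of the ISG15 system and all 4 of the IFIT family were among the 21. Ifit2 and Ifit3 had no summit in KO at either time, so their changes come from WT alone. Ifit3 entered the fit only through the 2 WT lists at 4 h, where it was high. Without WT 2 h replicate 2, 13 members were called in all. Gbp5 (chr3:142496934-142522344), a guanylate-binding GTPase that promotes inflammasome assembly, was the member that fell, by 1.70 ± 0.35 (limma adjusted p = 0.0143). It was chosen for description after its values were seen. Gbp5 ranked 904 and 664 in WT and 2952 and 2446 in KO at 2 h. At 4 h it ranked 7294 in WT replicate 1, had no summit in WT replicate 2, and ranked 2031 and 3872 in KO. At 6 h it had no summit in WT and ranked 3073 and 5710 in KO. The WT libraries thus lay above the KO libraries at 2 h and below them at 4 and 6 h, although Gbp5 was not called between genotypes at any time. Its neighbours Gbp2, Gbp3 and Gbp7 also had no summit in either WT list at 6 h, while KO 6 h replicate 1 had one at each and KO 6 h replicate 2 had one at Gbp7 alone of these 3. WT 6 h replicate 2 is the list with the fewest genes, 2695, and in WT 6 h replicate 1 the list as deposited held a summit at Gbp2, Gbp3 and Gbp7 beyond the 8394 best.

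From 4 to 6 h, 5 members fell, against 1.97% of all genes, and none rose, against 1.06%. At an unadjusted p under 0.05, 1 member was higher and 13 were lower, and 1282 of 8477 genes differed in either direction. Isg15 fell by 2.82 ± 0.51, Ifi205 by 2.39 ± 0.43, Ifit1 by 1.69 ± 0.40, Ifit3b by 1.39 ± 0.25 and Ifit3 by 0.94 ± 0.18. Ifit3 had a summit only in the WT lists at 4 h, through which alone it entered the fit. With only the compared groups in the fit, none of the 5 was called, and the counts without a single library ran from 1 to 7. From 2 to 6 h, 14 members rose, against 4.39% of all genes, and 1, again Gbp5, fell, against 3.93%. All 3 of these comparisons cross the code series, as do those of 4 and 6 h with untreated libraries.

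Between genotypes, 7 members were called at 4 h. At that time 6 were lower in KO than in WT, against 0.236% of all genes, and 1 was higher, against 0.165%. The 6 were Ifit2, Ifit3 and Ifit3b of the IFIT family, Oas3 and Oasl1 of the OAS family, and Rsad2, and the member that was higher was Ifi205. Of the 39 tested members, 34 had a change below 0, and the median change was −1.26 against 0.00 over all genes. The median was −0.78 in the lists as deposited, against 0.40 over all genes, and −0.50 with summits counted, against 0.00. The 2 libraries of each group were close over the members as a set: the median rank score over all 40 was 3.10 and 3.15 in WT and 1.69 and 1.69 in KO. Summits at members numbered 156 and 113 in WT and 74 and 78 in KO in the shortened lists, but 261 and 246 in WT and 229 and 209 in KO in the lists as deposited.

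At 4 h Ifit3b ranked 921 and 1847 in WT and 5582 and 7820 in KO, a difference of −2.34 ± 0.36 (limma adjusted p = 0.0112), and lost its call only without KO 4 h replicate 2. Ifit2 ranked 637 and 2259 in WT and had no summit in KO, a difference of −2.81 ± 0.49 (limma adjusted p = 0.0244). Its summits lay in 3 lists, all WT. It thus entered the fit only through the genotype where it was high, and most values behind its SE are 0. Ifit3 ranked 1616 and 3228 in WT at 4 h and had no summit in the other 14 lists, a difference of −1.88 ± 0.26 (limma adjusted p = 0.00574). It entered the fit only through the group where it was high, 14 of the 16 values behind its SE are 0, and it could not be tested without either WT library at 4 h, so the call has no check against the libraries it rests on. With each gene ranked once it was not called. In the lists as deposited, where the KO lists were longer, Ifit2 had 7 and 4 summits in WT against 0 and 3 in KO, and Ifit3 had 4 and 2 against 2 and 1. For all 3 genes the WT libraries lay above both KO libraries. Ifit1, the remaining family member, pointed the same way at −1.44 ± 0.56 and was not called.

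Rsad2 (chr12:26442743-26456452) encodes viperin, which makes a chain-terminating nucleotide that stops viral polymerases. Before 4 h it had no summit in the shortened lists of either genotype, and as deposited ranked 15850 in KO untreated replicate 2. At 4 h it ranked 986 and 2115 in WT, 8376 in KO replicate 1, near the end of the list, and had none in KO replicate 2. At 6 h it ranked 2907 and 2685 in WT and 6917 and 5333 in KO. WT lay above KO in both replicates at both times, and at 4 h the difference was −2.54 ± 0.41 (limma adjusted p = 0.0151). In the lists as deposited Rsad2 had 11 and 12 summits in WT and 3 and 4 in KO at 4 h. Oas3, whose ranks are given above, differed by −3.04 ± 0.59 (limma adjusted p = 0.0471). Oasl1 (chr5:114923143-114937911), a 2′-5′ oligoadenylate synthetase-like protein, ranked 1159 and 640 in WT and 4495 and 5190 in KO at 4 h, but 6998 and 3775 in WT and 1580 and 1489 in KO at 6 h. The 2 genotypes did not overlap at either time and changed places between them. The difference at 4 h was −2.49 ± 0.48 (limma adjusted p = 0.0492), and that at 6 h, 1.74 ± 0.48, did not pass.

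Ifi205 (chr1:174011998-174031755), a PYHIN-family gene that regulates inflammasome genes, went the other way. It had no summit in any untreated list. At 2 h it had none in WT and ranked 1935 and 2850 in KO, and at 4 h it ranked 3470 and 3345 in WT and 472 and 289 in KO. At 6 h it had a summit only in KO replicate 1, at rank 2000. KO libraries thus lay above WT libraries at 2 and 4 h without overlap, and the difference at 4 h was 3.21 ± 0.61 (limma adjusted p = 0.0437). In the lists as deposited it had 5 and 6 summits in KO at 4 h and 1 and 1 in WT. It belongs to a cluster of similar genes, so read placement is uncertain here too.

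**Figure D3:**
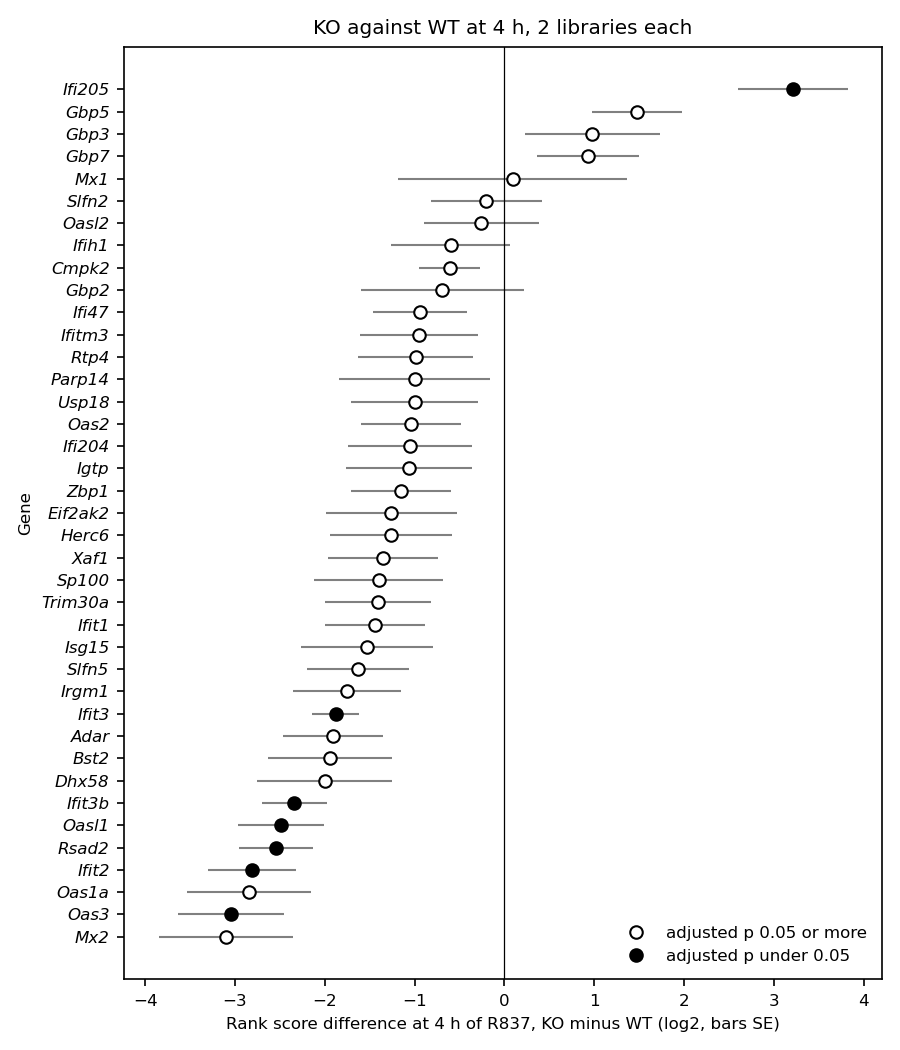
Difference in rank score between KO and WT at 4 h (horizontal axis, KO minus WT, with its SE as a bar) for the 39 tested members, ordered by size, with the 7 called members marked. Of the 39, 34 lie below 0, and Ifi205 stands apart at 3.21.

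The calls at 4 h rest on few libraries. Ifit2 lost its call without any of 8 libraries, Oas3 without any of 11, Oasl1 without any of 12, Ifi205 without any of 14 and Rsad2 without either of 2. With only WT and KO at 4 h in the fit none of the 7 was called. In the lists as deposited 3 were called, Ifit2 and Ifit3 lower and Ifi205 higher, while over all genes the split moved from 14 higher and 20 lower to 62 higher and 12 lower and the median difference from 0.00 to 0.40. Several members with differences as large did not pass, such as Mx2 at −3.10 ± 0.75 (limma adjusted p = 0.142) and Oas1a at −2.84 ± 0.69 (limma adjusted p = 0.144). Genes with no summit in most lists have a small spread by construction, since those lists all score 0.

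At rest no member was called between genotypes, against 1.37% of all genes. None differed at an unadjusted p under 0.05, where 899 of 8477 genes did. At 2 h none was called, against 0.0708% of all genes, and 26 of 39 changes lay below 0. At an unadjusted p under 0.05, 5 members were lower and 1 higher, and 437 of 8477 genes differed in either direction. Oas3 at 2 h differed by −2.76 ± 0.59, with summits in both WT lists and in neither KO list, and did not pass (limma adjusted p = 0.188). At 6 h none was called, against 1.32% of all genes. At an unadjusted p under 0.05, 5 members were lower and 4 higher, and 1121 of 8477 genes differed in either direction. The median difference over the members at 6 h was −0.04, though it was 0.87 in the lists as deposited and −0.47 without KO 6 h replicate 1. Over the 3 treated times together, 6 against 6 libraries, Oas3 (−2.16 ± 0.34), Adar (−1.57 ± 0.33) and Rsad2 (−1.22 ± 0.24) were lower in KO, against 0.295% of all genes, and Ifi205 (2.03 ± 0.35) was higher, against 0.448%. Adar ranked 5881 and 6374 in untreated WT and 5643 in 1 untreated KO list. It ranked 2273 and 1822 in WT at 2 h, against 7945 in 1 KO list and none in the other, 1025 and 668 in WT against 3647 and 2644 in KO at 4 h, and 1392 and 1570 in WT against 4421 and 1494 in KO at 6 h. Its genotypes overlapped at rest and at 6 h and stood apart at 2 and 4 h. The call of Oas3 was lost without 1 of the 16 libraries, and those of Ifi205, Rsad2 and Adar without any of 6, 12 and 14.

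Whether the response to R837 itself differed between genotypes was tested as a difference of differences. No member was called, against 0.932% of all genes. At an unadjusted p under 0.05, 3 members were lower and 1 higher, and 917 of 8477 genes differed in either direction. For the response at 4 h alone no member was called either, against 0.165% of all genes. There 12 members were lower and 1 higher at an unadjusted p under 0.05, and 763 of 8477 genes differed in either direction. The smallest adjusted p values in that comparison belonged to Ifit3 (−1.88 ± 0.36, limma adjusted p = 0.0667) and Ifit3b (−2.34 ± 0.51, limma adjusted p = 0.0838).

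After R837 the share of summits near a gene start had a lower value both at members and over all genes. In the 31 members whose strand and start were known, 33 of 50 summits in the untreated lists (66.0%) lay within 1 kb of an annotated start, against 278 of 593 in the treated lists (46.9%). Over all genes the shares were 72.5% and 50.2%. At 4 h the share was 35.9% in WT (60 of 167 summits) and 60.0% in KO (54 of 90), against 52.4% and 58.0% over all genes. At 2 h it was 43.9% in WT and 60.4% in KO, against 40.7% and 48.9% over all genes, and at 6 h 41.3% and 58.8%, against 40.3% and 60.7%. The lower share in WT was thus also seen over all genes at each of these times. By library it ran from 30.8 to 45.0% in WT and from 59.6 to 60.5% in KO at 4 h. Rsad2 in WT at 4 h had 11 summits over both lists, of which 2 lay near the start and the farthest 14564 bp downstream, beyond the annotated end. In KO it had 1, located 214 bp from the start. Ifit1 had 12 summits in WT, the farthest 9239 bp downstream, and 4 in KO, the farthest 9255 bp downstream. Slfn5 had 16 in WT and 8 in KO, with 2 and 3 of them near the start. Gbp5 in WT went from 27 summits at 2 h to 3 at 4 h. These shares are pooled over summits that share libraries and genes, and no test was made of them.

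**Figure D4:**
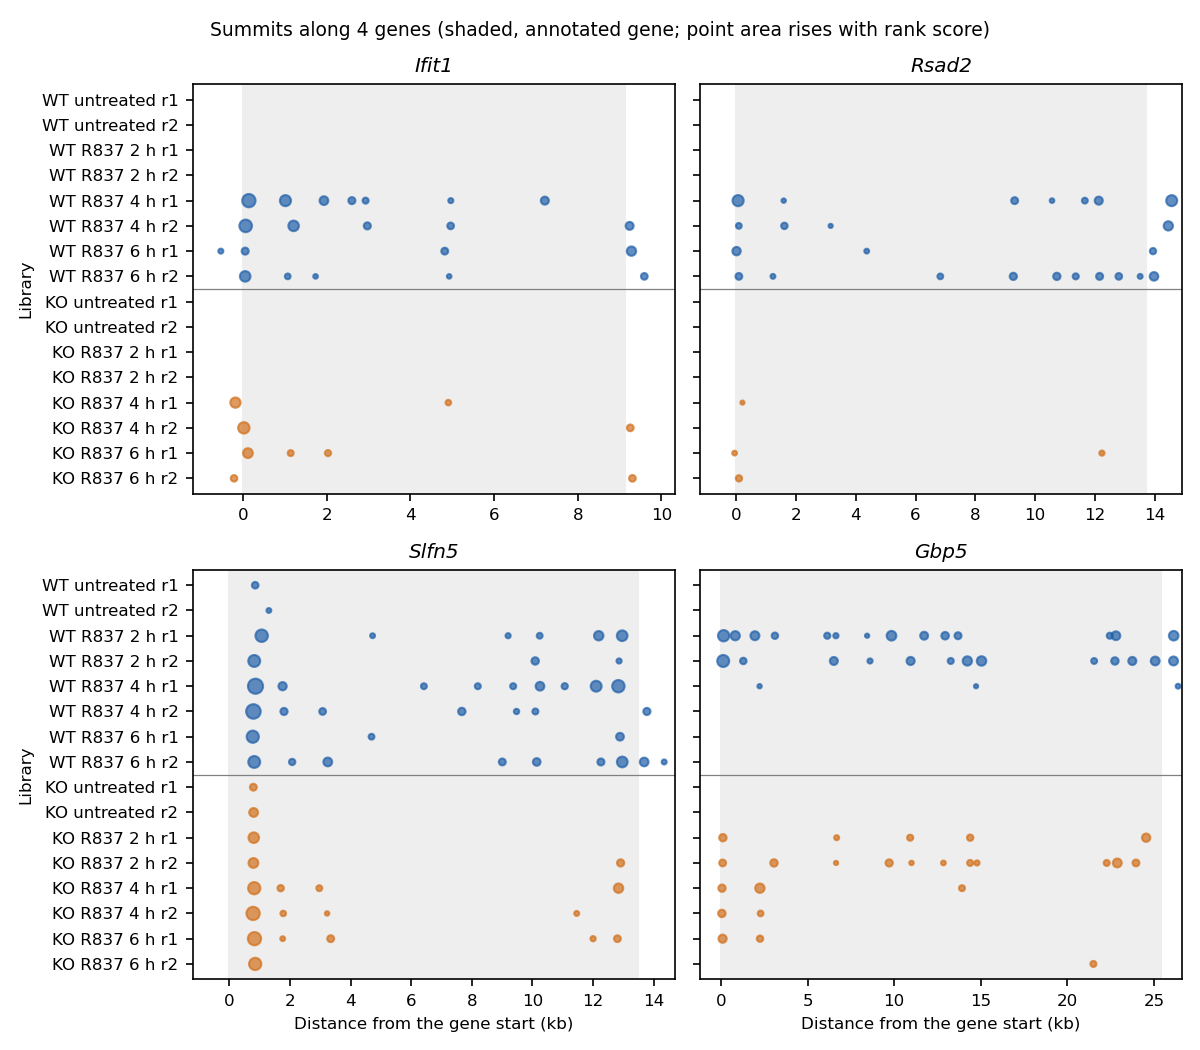
Distance of each summit from the gene start in kb (horizontal axis) for Ifit1, Rsad2, Slfn5 and Gbp5, with libraries in rows, the annotated gene shaded, and larger points for higher rank scores. In Rsad2 the WT rows at 4 h hold 11 summits, from the start to beyond the gene's end, and the KO rows hold 1.

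The pathway around these genes was read from a separate list. None of 7 interferon ligand genes, Ifng for interferon gamma among them, had enough summits to be tested, and Ifnb1 had none in any list. None of 4 receptor genes was called after R837. Of 6 signalling genes 1 rose. These counts stand beside 5.79% of all genes that rose and 29.4% that fell. Of 6 interferon regulatory factors Irf7, the amplifier of the interferon response, rose by 2.63 ± 0.37, whereas Irf8 fell by 2.63 ± 0.39 and Irf5 by 2.34 ± 0.35, and Irf2 also fell. Irf7 ranked 147 and 541 in WT and 1678 and 1452 in KO at 4 h, a difference of −2.47 ± 0.64 that did not pass (limma adjusted p = 0.189). Of 11 genes on the route from TLR7, 2 rose, among them Ikbke, which encodes the IKK-related kinase that phosphorylates interferon regulatory factors (4.24 ± 0.36). Of 4 feedback genes 3 rose, with Socs3, an inhibitor of cytokine receptor signalling, by 9.62 ± 0.37 and the phosphatase gene Ptpn6 by 2.14 ± 0.39. Socs3 had no summit at rest and ranked between 5 and 19 in the treated lists.

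Of 52 further interferon-stimulated genes outside the 40, 36 could be tested, 13 rose after R837 and none fell, against 5.79% and 29.4% of all genes. Ifitm2, a neighbour and relative of Ifitm3, rose by 5.81 ± 0.52, Ifi211 by 3.11 ± 0.51, the helicase genes Ddx60 by 2.27 ± 0.38 and Helz2 by 2.03 ± 0.29. Parp9 and Dtx3l, which share a promoter region and here a best summit, each had a change of 3.27 ± 0.56 and count as 1 observation. Between genotypes at 4 h 1 of the 36 was called, Fcgr1, which was lower in KO, against 0.236% of all genes, and which encodes the high-affinity IgG receptor. It ranked 185 and 186 in WT and 5714 and 6509 in KO at 4 h, and 259 and 97 in WT and 1734 and 2862 in KO at 6 h. The difference at 4 h was −5.04 ± 0.60 (limma adjusted p = 0.00164). At rest its ranks overlapped, at 2049 and 1271 in WT and 2472 and 1260 in KO. At 2 h it ranked 1722 and 1295 in WT and, in KO, had no summit and 7813.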

How the data were processed

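Polymerase summits of 16 libraries were read from the authors' deposited lists, which hold a position and a −log10 score per summit. The submitters' processing notes name GSNAP, MACS2 and GRCm38 without versions, and whether the −log10 score is of a p or a q value is not given in the sources used here. Libraries were sequenced as 75-base single-end reads, per the labels' protocols. Read depth is not known from these lists, and the input DNA was not analysed here. The members and gene lists were chosen with earlier results of these data known.

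Genes were 21887 protein-coding genes of RefSeq GRCm38.p6 plus Mx1 and Mx2. Only the 8394 best summits of a library were used, and the best rank in the gene span extended by 1 kb gave the rank score, log2 of 8395 divided by the rank or 0. Genes with a summit in at least 2 lists (8477) entered a linear model of all 16 libraries with a mean for each group. The fit used limma 3.58.1 in R 4.3.3, with a variance trend, empirical Bayes moderation and Benjamini-Hochberg adjustment at 0.05. The fitting steps were also run on simulated lists with equal gene numbers and no code series, which does not check the calls made here. Ranks were read and summarised with Python 3.11.15 and pandas 2.3.3. The comparisons of 4 with 2 h, of 6 with 4 h and of the response at 4 h were added after the ranks were seen. Values in each library were given for the 12 called members with the largest changes after R837, the largest of each role group, and every member called between genotypes, 21 in all. Pathway genes were named where called with a change over 2, at most 12, and values printed for any other gene were chosen after they were seen. Alternatives were a replicate block, each gene ranked once, extensions of 0 and 3 kb, the 4000 best summits, the lists as deposited, a minimum of 1 or 4 lists, counts of summits, the compared groups alone, and leaving out each library. Counts of summits were taken as log2 of the number plus 1, so all values given with summits counted are on that scale.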

Additional observations from a re-analysis of the deposited data

Results flagged for a closer look

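Of the comparisons between times, averaged over both genotypes, those below differed by a test of the difference itself (limma, adjusted p under 0.05). Each value is a difference in mean rank score, later minus earlier time. These comparisons cross the 3 code series, so time and series cannot be told apart, and the first 2 were added after the ranks were seen.

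Between 2 and 4 h the differences were 4.79 for Mx2, 4.45 for Isg15, 3.82 for Usp18, 3.65 for Ifit1, 3.14 for Rtp4 and 3.09 for Zbp1. They were 2.46 for Trim30a, 2.45 for Herc6, 2.40 for Oas3, 2.14 for Ifi204 and 2.04 for Oasl1. They were 1.99 for Irgm1, 1.98 for Ifi205, 1.95 for Oas2, 1.92 for Slfn5, 1.77 for Xaf1, 1.52 for Ifit3b, 1.5 for Ifi47, 1.40 for Ifit2, 1.27 for Rsad2 and 0.94 for Ifit3. Gbp5 was the only member lower, at −1.70. Of these 22, 11 passed whichever library was left out, and Ifit3 could not be tested without either WT library at 4 h.

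Between 4 and 6 h the differences were −2.82 for Isg15, −2.39 for Ifi205, −1.69 for Ifit1, −1.39 for Ifit3b and −0.94 for Ifit3. Ifi205 alone of these 5 passed whichever library was left out, Ifit1 was lost without any of 14 libraries, and Ifit3 could not be tested without either WT library at 4 h.

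Between 2 and 6 h the differences were 3.72 for Usp18, 3.40 for Zbp1, 3.29 for Mx2, 2.82 for Rtp4, 2.37 for Dhx58 and 2.11 for Oas3. They were 1.98 for Herc6, 1.96 for Ifit1, 1.95 for Xaf1, 1.88 for Ifitm3, 1.87 for Oas2, 1.73 for Ifih1, 1.58 for Oasl1 and 1.03 for Rsad2, and −2.04 for Gbp5. Of these 15, 10 passed whichever library was left out.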

How the results depend on the processing

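Counts below are members called, in either direction, out of those tested. R837 against untreated gave 29, and 19 with each gene ranked once. In WT, the count at 4 h (28) was 12 with only the compared groups in the fit, and at 6 h (20) it was 13 with each gene ranked once, 13 with gene regions not extended, 13 with the 4000 best summits and 0 with only the compared groups. In KO, the count at 2 h (3) was 6 with summits counted and 1 with only the compared groups. In KO at 4 h (14) it was 7 with each gene ranked once, 9 with regions not extended, 8 with the 4000 best summits, 22 in the lists as deposited and 6 with only the compared groups, and in KO at 6 h (18) it was 10 with each gene ranked once and 4 with only the compared groups. KO against WT at 4 h (7) gave 4 with the replicate block, 4 with each gene ranked once, 4 with a 3 kb extension, 4 with none, 4 with the 4000 best summits, 3 in the lists as deposited, 2 with a minimum of 4 lists, 2 with summits counted and 0 with only the compared groups. At 6 h (0) it gave 1 with regions not extended and 4 in the lists as deposited, namely Gbp5, Gbp7, Herc6 and Oasl1, higher in KO, where the split over all genes moved from 96 higher and 16 lower to 827 higher and 7 lower. Over the treated times (4) it gave 2 with the replicate block, 1 with regions not extended, 2 with the 4000 best summits, 2 in the lists as deposited, 1 with summits counted and 1 with only the compared groups. The difference of the response at 4 h (0) gave 1 with the 4000 best summits, 1 with a minimum of 1 list and 1 with summits counted. From 2 to 4 h (22) the count was 13 with summits counted and 13 with only the compared groups, and from 4 to 6 h (5) it was 3 with a 3 kb extension, 2 with summits counted and 0 with only the compared groups. From 2 to 6 h (15) it was 9 with each gene ranked once, 24 in the lists as deposited and 8 with only the compared groups. Leaving out each library gave 23 to 32 members for R837 against untreated, 4 to 8, 22 to 29 and 10 to 21 in WT at 2, 4 and 6 h, and 2 to 4, 9 to 15 and 12 to 18 in KO. It gave 0 to 0 for KO against WT untreated and at 2 h, 2 to 7 at 4 h, 0 to 1 at 6 h and 0 to 7 over the treated times. It gave 13 to 23 from 2 to 4 h, 1 to 7 from 4 to 6 h, 11 to 19 from 2 to 6 h, 0 to 0 for the response difference and 0 to 3 for that at 4 h. The median change over the members ran, across the alternatives other than leaving out a library, from 0.80 to 1.88 for R837 against untreated, from 0.20 to 1.59, 1.5 to 3.42 and 1.06 to 2.31 in WT at 2, 4 and 6 h, and from 0.00 to 1.0, 0.39 to 2.74 and 0.65 to 2.84 in KO. It ran from −1.26 to −0.50 for KO against WT at 4 h and from −0.50 to 0.87 at 6 h. Single members changed sign in 6 cases. Slfn2 after R837 was −1.03 with summits counted. From 2 to 4 h Irgm1 was −0.59 with regions not extended and Rtp4 −0.43 with summits counted. From 2 to 6 h Ifitm3 was −0.07 with regions not extended and −0.15 with summits counted, and Rtp4 was −0.26 with summits counted. The cause was not tested, except that fewer groups in a fit leave fewer libraries to estimate the spread. The replicate numbers are shared by the groups but did not pair the libraries: over 28 pairs of groups the correlation of replicate deviations ran from −0.111 to 0.179 with a median of 0.008. For R837 against untreated and for the response difference the compared groups are all groups, so that alternative was not run. With 2 libraries a group, and ranks that cannot fall below the end of the shortened list, weak occupancy is not separated from none.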
